A study of Mus musculus with 21 samples.

Results

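The genes described here encode the proteasome, its regulators and its assembly factors in mouse cells. Members were every gene whose name begins with Psma, Psmb, Psmc, Psmd, Psme, Psmf or Psmg followed by a number and that stands in both deposited expression tables. This rule took 50 genes, of 21161 gene names in the table of cell states and 55291 in the table of lactate doses. They fall into 8 alpha and 7 constitutive beta subunits of the 20S core particle, the 3 inducible beta subunits Psmb8, Psmb9 and Psmb10, and 6 ATPases and 11 non-ATPase subunits of the 19S regulatory particle. The others are Psmd5, Psmd9 and Psmd10, which carry a subunit-like name but act as assembly factors of the 19S particle, the activators Psme1 to Psme4, the inhibitor Psmf1, and the chaperones Psmg1 to Psmg4, which assemble the 20S core. Psma5-ps and Psme2b are copies of Psma5 and Psme2. Psmc3ip matches the rule by name only and is a meiotic recombination factor that is not part of the proteasome. Another 5 names matched in the lactate table alone, which were not members: Psmb11, the beta subunit of the thymus, stayed at or below 0.155 FPKM (fragments per kilobase, scaled to library size), and the other 4 are pseudogenes.

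RNA sequencing covered 21 libraries of mouse cells, all labelled as the line OG2, in 7 groups of 3. In the cell-state table the groups were 2-cell-like cells (2CLCs, which carry transcripts of the 2-cell embryo), epiblast stem cells (EpiSCs, a primed form of pluripotency), mouse embryonic fibroblasts (MEFs) and embryonic stem cells (ESCs), with the treatment of each given as WT. In the lactate table they were ESCs at 0, 60 or 80 mM sodium lactate, the group at 0 mM also being labelled WT. How 2CLCs were obtained, the culture media and the time in lactate are not given in the sources used here. Each library title ends in br and a number, and the labels do not spell out br. Whether the 3 libraries of a group came from separate cultures is thus not stated, so what the p-values weigh is the variation among these libraries. Tests were made only within a table, as each was normalized on its own. The 3 comparisons of cell states share the ESC libraries.

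The 26S proteasome degrades proteins that carry ubiquitin chains. Its 20S core is a barrel in which rings of alpha subunits gate the entry and rings of beta subunits hold the active sites, of which Psmb5, Psmb6 and Psmb7 are the constitutive catalytic subunits. The 19S particle sits on the barrel, and its ATPases unfold substrates while its non-ATPase subunits bind and trim ubiquitin chains. Interferon induces Psmb8, Psmb9 and Psmb10, which replace the 3 constitutive catalytic subunits in the immunoproteasome, and Psme1 and Psme2, which form the PA28 activator that opens the core without the 19S particle. Pluripotent cells are known for high proteasome activity.

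The promoters of the genes on which the results below turn are printed here so that their sequence can be set beside their levels. They are the 3 inducible beta subunits, of which Psmb8 and Psmb9 were higher and Psmb10 lower in EpiSCs than in ESCs, Psme1, which was higher in EpiSCs and 2CLCs, and Psmd9, the member with the largest rise in 2CLCs. Each sequence is RefSeq's, build GRCm38.p6, 5′ to 3′ on the gene's strand, from 250 bases before to 50 bases after the start of transcription. Psmb8 is chr17:34197945-34198244 on the plus strand, Psmb9 chr17:34187281-34187580 on the minus strand and Psmb10 chr8:105938343-105938642 on the minus strand. Psme1 is chr14:55578244-55578543 and Psmd9 chr5:123227940-123228239, both on the plus strand. Capitals mark matches, on either strand, to GAAA, NN and GAAA in a row (core of the interferon-stimulated response element), TTCNNNGAA (core of the gamma-activated site, which reads the same on both strands) and TGACNNNGC (core of the antioxidant response element, which NRF1 and NRF2 bind).
Psmb8: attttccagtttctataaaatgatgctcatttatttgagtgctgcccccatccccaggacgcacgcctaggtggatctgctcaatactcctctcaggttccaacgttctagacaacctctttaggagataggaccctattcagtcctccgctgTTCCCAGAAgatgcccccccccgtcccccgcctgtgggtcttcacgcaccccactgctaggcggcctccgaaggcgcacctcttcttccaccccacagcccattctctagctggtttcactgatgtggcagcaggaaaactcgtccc
Psmb9: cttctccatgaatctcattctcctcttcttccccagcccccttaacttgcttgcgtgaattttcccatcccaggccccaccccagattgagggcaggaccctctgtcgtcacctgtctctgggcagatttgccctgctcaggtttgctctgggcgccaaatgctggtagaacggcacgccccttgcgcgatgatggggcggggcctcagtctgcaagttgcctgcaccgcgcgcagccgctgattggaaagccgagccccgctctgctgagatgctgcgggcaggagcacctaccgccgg
Psmb10: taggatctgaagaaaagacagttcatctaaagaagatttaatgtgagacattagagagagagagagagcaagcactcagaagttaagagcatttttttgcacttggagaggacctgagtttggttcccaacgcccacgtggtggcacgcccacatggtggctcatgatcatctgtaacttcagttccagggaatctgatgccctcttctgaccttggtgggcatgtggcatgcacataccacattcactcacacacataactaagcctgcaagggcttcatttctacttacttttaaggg
Psme1: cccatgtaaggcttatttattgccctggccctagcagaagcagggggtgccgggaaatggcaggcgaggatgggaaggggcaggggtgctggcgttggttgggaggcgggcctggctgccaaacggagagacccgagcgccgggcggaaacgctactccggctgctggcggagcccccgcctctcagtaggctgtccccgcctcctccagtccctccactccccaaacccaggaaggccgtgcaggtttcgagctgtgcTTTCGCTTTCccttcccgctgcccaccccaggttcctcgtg
Psmd9: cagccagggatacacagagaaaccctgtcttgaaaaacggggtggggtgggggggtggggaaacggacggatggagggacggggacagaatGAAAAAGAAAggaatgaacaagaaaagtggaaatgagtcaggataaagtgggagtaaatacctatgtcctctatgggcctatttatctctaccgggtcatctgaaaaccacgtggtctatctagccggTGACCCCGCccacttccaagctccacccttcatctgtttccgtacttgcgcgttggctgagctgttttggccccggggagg

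Of the 50 members, 41 have a promoter in the RefSeq table. Members were counted by gene, with a match in any promoter of the gene, while the percentages are over single promoters. TGACNNNGC stands in 6 of these 41 (Psmb5, Psmb6, Psmc6, Psmd9, Psmd12 and Psme4) and in 12.4% of all 32851 mouse promoters of that length. The core of the interferon-stimulated response element stands in 5 of 41 (Psmb3, Psmd4, Psmd9, Psme1 and Psmg4) and in 3.44% of all promoters. TTCNNNGAA stands in 3 of 41 (Psmb8, Psmd2 and Psmg1) and in 8.3% of all promoters. In Psmb8 the match TTCCCAGAA begins at −97 relative to the start, and in Psme1 TTTCGCTTTC, the reverse strand of the interferon element's core, begins at 9. Psmd9 holds GAAAAAGAAA at −159 and TGACCCCGC at −31. The windows of Psmb9 and Psmb10 hold none of the 3 motifs. A match describes letters and is not a site of binding.

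The members are spread over the genome. In the GENCODE M21 annotation of GRCm38, 49 of 50 could be placed, and the 31 constitutive subunits of the 20S and 19S particles (14 and 17 genes, without the testis form Psma8) lie on 14 chromosomes, with 6 on chromosome 11. Psmb8 (chr17:34197721-34201454, plus strand) and Psmb9 (chr17:34181987-34187764, minus strand) flank the peptide transporter gene Tap1 in the major histocompatibility complex, where the annotation of Tap1 overlaps that of Psmb9 by 212 bases and ends 496 bases from Psmb8. Psme1 (chr14:55578123-55581529, plus strand) and Psme2 (chr14:55587441-55591113, minus strand) are neighbours too. Of the members, 20 share no stretch of 50 bases with another gene, and 12 share over 10% of their stretches. Psme2 shares 28.3%, Psme2b 69.3% and Psmb5 54.1%, so the split of reads between these genes and their copies is uncertain. Psmd9 shares 24.9% of its stretches with other genes, mainly with the antisense gene Gm26745, which it overlaps by 1849 bases. Psmg3 shares 7.89%, all with Gm26938, a gene on the same strand that it overlaps by 280 bases. The sources used here do not say whether counting used the strand.

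Summed FPKM per library lay between 375926 and 519915, the highest sums being in 2CLCs, and the number of reads behind the values is unknown. The labelled cell states held their markers: the summed FPKM of 6 genes of the 2-cell embryo was 12268 to 13536 in 2CLCs, against 5.93 to 6.49 in ESCs. That of the 5 primed epiblast genes measured was 460 to 606 in EpiSCs, against 28.4 to 29.9 in ESCs, and that of 6 fibroblast genes was 919 to 951 in MEFs, against 1.21 to 1.69 in ESCs. For 6 stem cell genes it was 2232 to 2247 in ESCs, 1438 to 1524 in 2CLCs, 613 to 765 in EpiSCs and 12.8 to 13.4 in MEFs. The fibroblast genes also summed to 11.4 to 11.8 in EpiSCs and 4.89 to 7.03 in 2CLCs, and to 0.705 to 0.976 at 0 mM, 3.16 to 3.90 at 60 mM and 4.49 to 4.78 at 80 mM lactate, and their part in the results was not tested. The summed 2-cell genes were 35.8 to 38.6 at 0 mM, 79.1 to 86.0 at 60 mM and 124 to 127 at 80 mM lactate. The primed epiblast genes, of which 6 were measured with lactate, summed to 53.5 to 59.2 at 0 mM, 79.6 to 87.6 at 60 mM and 86.3 to 90.9 at 80 mM. The stem cell genes summed to 2319 to 2390 at 0 mM, 2478 to 2555 at 60 mM and 2567 to 2651 at 80 mM. In bulk RNA, fewer cells of a type and less RNA per cell cannot be told apart. Log2 fold changes below are differences of log2(FPKM + 1) with their standard errors, on a scale that understates changes of low genes and gives no fold where a group is listed at 0, and adjusted p-values are from limma with Benjamini-Hochberg adjustment over all genes of a table that reached 1 FPKM in 3 or more libraries. A gene is said to have risen or fallen where its adjusted p was under 0.05.

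The constitutive subunits lay within a narrow range of levels in each group, and their share of the transcripts was smaller in 2CLCs, EpiSCs and MEFs than in ESCs. The 31 subunits held 0.634% ± 0.00840 of summed FPKM in 2CLCs, 0.865% ± 0.0257 in EpiSCs, 0.686% ± 0.00188 in MEFs and 0.977% ± 0.00971 in ESCs (SD, n = 3). At 0, 60 and 80 mM lactate they held 0.910%, 0.899% and 0.894%. The mean FPKM of the highest subunit was 3.82 to 5.36 times that of the lowest in every group. The highest was Psmb6, the catalytic subunit of caspase-like activity, in all groups but MEFs, where it was the 19S subunit Psmd8. The lowest was the alpha subunit Psma2 in all groups but 2CLCs, where it was Psma3.

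**Figure D1:**
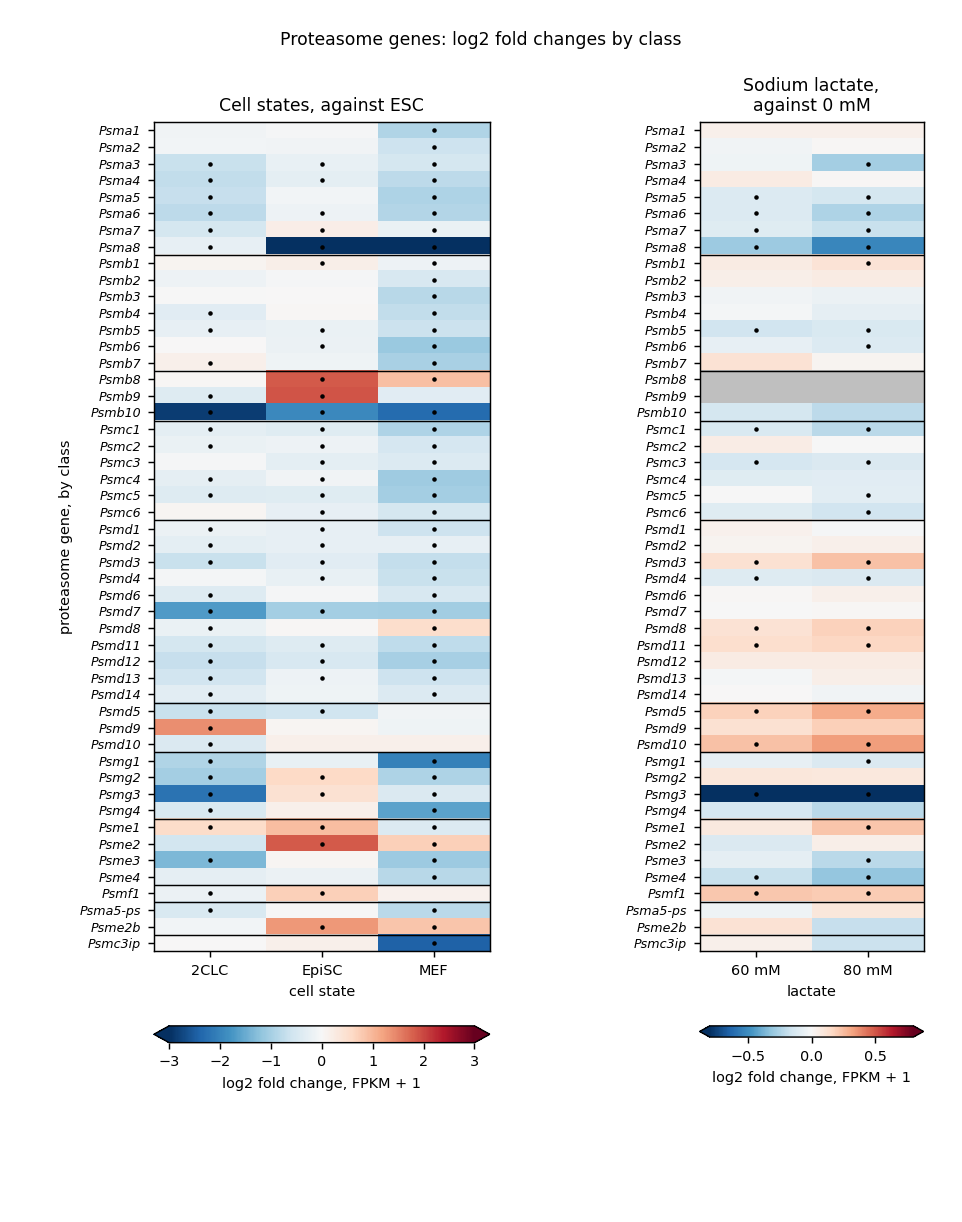
Log2 fold changes of the 50 members, in rows by class, in 2CLCs, EpiSCs and MEFs against ESCs (left, colour from −3 to 3) and at 60 and 80 mM sodium lactate against 0 mM (right, colour from −0.8 to 0.8). Dots mark an adjusted p under 0.05 and grey a gene that was not tested. MEFs stand out by lower values in 41 members, EpiSCs by the higher Psmb8, Psmb9, Psme1 and Psme2, and the lowest value under lactate is that of Psmg3 at −0.81.

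2CLCs and ESCs were compared to describe the proteasome genes of the 2-cell-like state. Of the 50 members 3 rose, 33 fell and 14 did not pass the test, while 76.5% of all 16358 genes tested changed in either direction, 20.1% higher and 56.4% lower. Libraries of the groups did not overlap for 41 of the 50 members and for 82.5% of all genes. The members' median log2 fold change was −0.31, above the median of −0.46 over all genes. Scaling decided the direction of most members. After median-of-ratios scaling, which moved the all-gene median to 0.02, 31 members were higher and 5 lower with a median of 0.43. Of all 16358 genes 6018 were then higher and 5301 lower. After quantile normalization 6 members were higher and 29 lower, and 3818 of all genes were higher and 8217 lower. The members that fell under the deposited values and both scalings were Psmb10, Psmg3, Psmd7, Psme3 and Psmg2, and those that rose under all 3 were Psmd9 and Psme1.

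Within the 20S core the alpha genes lay lower as a class than the beta genes in 2CLCs, though single genes of the classes overlapped. Of the 7 constitutive alpha subunits 5 fell and none rose (median log2 fold change −0.67), against 2 lower and 1 higher of the 7 beta subunits (median −0.01). Over all genes 56.4% fell and 20.1% rose (median −0.46). Psma6, an alpha ring subunit, averaged 88.1 FPKM in 2CLCs and 153 FPKM in ESCs (log2 fold change −0.79), while Psmb6 averaged 239 ± 10.01 FPKM in 2CLCs and 236 ± 11.7 FPKM in ESCs (0.02, adjusted p = 0.77). Exceptions were the alpha genes Psma1 (128 FPKM in 2CLCs and 137 in ESCs) and Psma2 (55.4 and 58.4). They changed less than the beta gene Psmb4 (140 and 176). A ratio within a library does not depend on its scaling: the summed FPKM of Psma1 to Psma7 was 52.7%, 51.4% and 55.3% of that of Psmb1 to Psmb7 in 2CLCs, against 73.7%, 73.4% and 73.3% in ESCs. It was 72.8% ± 2.85 in EpiSCs and 78.4% ± 1.05 in MEFs (SD, n = 3), so that 2CLCs were the state with the lowest share of alpha transcripts. After median-of-ratios scaling the alpha subunits no longer fell as a group, with 3 of 7 higher and none lower, and all 7 beta subunits were higher. Of all 16358 genes 6018 were higher and 5301 lower under that scaling.

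Among the catalytic subunits, Psmb7, which has trypsin-like activity, averaged 188 ± 3.81 FPKM in 2CLCs and 168 ± 0.611 FPKM in ESCs (0.16, adjusted p = 0.018, and −0.04 after quantile normalization). Psmb5, which has chymotrypsin-like activity, fell to 109 FPKM in 2CLCs, against 129.9 in ESCs (−0.26, and 0.51 after median-of-ratios scaling). Psmb7 lost its call without 2CLC replicate 1. Psmb10, the inducible counterpart of Psmb7, had 5.36, 3.53 and 4.62 FPKM in 2CLCs, against 39.3, 38.8 and 37.6 FPKM in ESCs. All 2CLC libraries lay below all ESC libraries, and the log2 fold change was −2.86 ± 0.12 (adjusted p = 1.3e-09), the largest fall of any member. Psmb8 was at or near 0 in both states, and Psmb9 averaged 0.195 ± 0.170 FPKM in 2CLCs and 0.555 ± 0.178 FPKM in ESCs, a fall (−0.38, adjusted p = 0.03) that was lost without 2CLC replicate 2 or without ESC replicate 1. No 2CLC or ESC library reached 1 FPKM of Psmb9, which was tested here only because EpiSCs brought it past the filter, and it was not tested in a fit of only these groups.

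In the 19S particle 14 of 17 subunits fell in 2CLCs and none rose, where 56.4% of all genes fell and 20.1% rose. These were 4 of 6 ATPases (median −0.23) and 10 of 11 non-ATPase subunits (median −0.39). Both medians lay above that of −0.46 over all genes. After median-of-ratios scaling 14 of 17 were higher and 1 was lower, where 6018 of all 16358 genes were higher and 5301 lower. The member that was lower under that scaling as well was Psmd7, a lid subunit that pairs with the deubiquitinase Psmd14. It had 52.7, 57.4 and 52.8 FPKM in 2CLCs, against 179, 178 and 176 FPKM in ESCs. The groups were far apart (−1.69 ± 0.10, adjusted p = 4.4e-08, and −0.93 after median-of-ratios scaling). Psmd14, its partner, averaged 72.1 FPKM in 2CLCs and 90.5 FPKM in ESCs (−0.32).

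The assembly factors moved in both directions in 2CLCs. Psmd9, a chaperone of the 19S base that binds ATPases before they join the particle, had 31.4, 32.3 and 27.2 FPKM in 2CLCs, against 10.6, 11.3 and 10.7 FPKM in ESCs. Each 2CLC library exceeded each ESC library, the log2 fold change being 1.39 ± 0.08 (adjusted p = 1.6e-08), 2.12 after median-of-ratios scaling and 1.65 after quantile normalization. Since Psmd9 overlaps the antisense gene Gm26745, these reads cannot be told apart from antisense reads. The other base chaperones fell as deposited, Psmd5 to 13.9 FPKM in 2CLCs, against 22.6 in ESCs (−0.66), and Psmd10 to 8.08, against 11.3 (−0.44), but both were above 0 after median-of-ratios scaling (0.07 and 0.25).

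All 4 chaperones of the 20S core fell in 2CLCs (median −0.96), where 56.4% of all genes fell (median −0.46). After median-of-ratios scaling 2 of these chaperones remained lower, where 5301 of all 16358 genes were lower. Psmg3, which with Psmg4 forms the PAC3-PAC4 pair that starts the alpha ring, had 4.14, 2.04 and 2.97 FPKM in 2CLCs, against 17.6, 16.6 and 17.8 FPKM in ESCs. Only Psmb10 fell further among the members (Psmg3 −2.21 ± 0.16, adjusted p = 1.9e-07). Psmg1 and Psmg2 form the other pair, PAC1-PAC2. Psmg2 averaged 12.8 ± 1.82 FPKM in 2CLCs and 26.7 ± 1.10 FPKM in ESCs (−1.01 ± 0.09, adjusted p = 6.3e-07). Psmg1 averaged 33.7 ± 2.60 FPKM in 2CLCs and 64.1 ± 2.41 FPKM in ESCs (−0.91, and −0.16 with adjusted p = 0.16 after median-of-ratios scaling), and Psmg4 26.2 ± 4.87 FPKM in 2CLCs and 35.9 ± 0.897 FPKM in ESCs (−0.46, adjusted p = 0.012).

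Activators diverged. Psme1, the alpha subunit of PA28, had 53.2, 54.4 and 49.4 FPKM in 2CLCs, against 36.3, 36.2 and 33.9 FPKM in ESCs, and rose (0.55 ± 0.08, adjusted p = 6.4e-05). Psme2, its beta subunit, had 4.95, 12.8 and 10.5 FPKM in 2CLCs, against 11.98, 15.7 and 12.8 FPKM in ESCs, and did not pass (−0.56, adjusted p = 0.078), while its sum with the copy Psme2b, 17.7 ± 1.46 FPKM in 2CLCs and 22.0 ± 0.459 FPKM in ESCs, fell (−0.30, adjusted p = 0.000771). Psme3, the nuclear activator PA28 gamma, fell to 38.4, 41.1 and 39.1 FPKM in 2CLCs, against 105, 101 and 100.05 FPKM in ESCs (−1.35 ± 0.04, adjusted p = 2.0e-10). Psme4, the nuclear activator PA200 that acts on acetylated histones, averaged 42.1 ± 0.970 FPKM in 2CLCs and 51.1 ± 0.444 FPKM in ESCs (−0.27, adjusted p = 0.065). The inhibitor Psmf1 averaged 6.45 FPKM in 2CLCs and 7.38 FPKM in ESCs (−0.17, adjusted p = 0.049, and 0.51 after median-of-ratios scaling). Psma8, an alpha subunit of the testis proteasome, averaged 9.54 ± 0.507 FPKM in 2CLCs and 11.5 ± 0.692 FPKM in ESCs (−0.25, adjusted p = 0.02), a call lost without 2CLC replicate 1 or 2 or ESC replicate 2, with 0.46 after median-of-ratios scaling. Psmc3ip did not pass (0.01, adjusted p = 0.90).

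**Figure D2:**
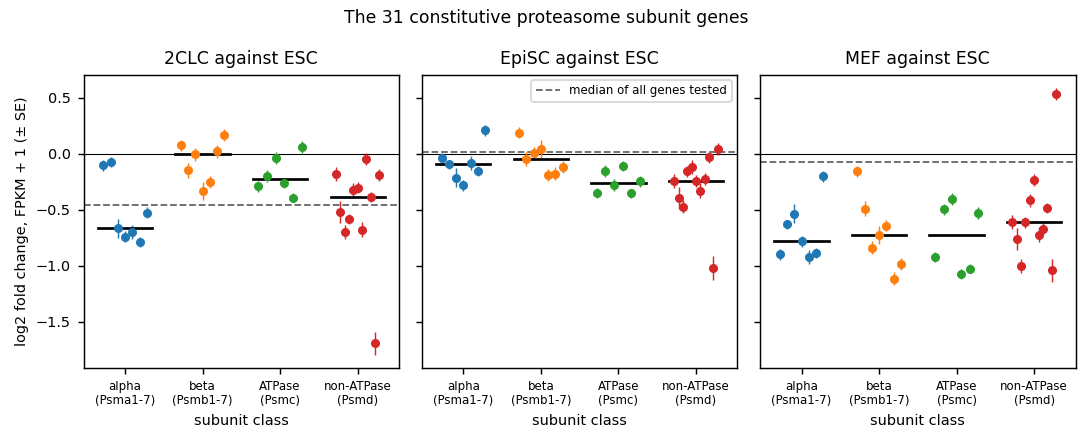
Log2 fold change with its standard error (vertical axis) of each of the 31 constitutive subunits, by class (horizontal axis), in 2CLCs, EpiSCs and MEFs against ESCs. Black bars are class medians and dashed lines the median of all genes tested. In 2CLCs the alpha subunits centre on −0.67 and the beta subunits on −0.01, while in MEFs all classes centre between −0.61 and −0.78.

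EpiSCs and ESCs were compared to describe the proteasome genes in these forms of pluripotency. The PA28 genes Psme1 and Psme2 rose in EpiSCs, Psmb10 fell, and 19S subunits fell slightly. Psmb8 and Psmb9 had higher values in EpiSCs than in ESCs but passed the filter only through the EpiSC libraries. Both are counted among the members that rose. Of the 50 members 10 rose, 22 fell and 18 did not pass, while 59.7% of all 16358 genes changed, 33.2% higher and 26.5% lower. Libraries did not overlap for 36 of 50 members and for 63.4% of all genes. The members' median was −0.12, against 0.01 over all genes. After median-of-ratios scaling 7 members were higher and 29 lower, where 4705 of all genes were higher and 4942 lower. After quantile normalization 11 members were higher and 14 lower, where 4734 of all genes were higher and 4918 lower. EpiSC replicate 1 stood apart from the other EpiSC libraries for several genes given below, and without it 11 members rose and 24 fell.

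Psmb8, the inducible counterpart of Psmb5, had 1.71, 3.39 and 2.89 FPKM in EpiSCs and was listed at 0 in all 3 ESC libraries (difference of log2(FPKM + 1) 1.84 ± 0.14, adjusted p = 6.1e-07). Psmb9, the counterpart of Psmb6, had 3.86, 4.69 and 5.90 FPKM in EpiSCs, against 0.760, 0.436 and 0.468 FPKM in ESCs (1.90 ± 0.14, adjusted p = 6.0e-07). Both genes were thus higher in each EpiSC library than in any ESC library, yet stayed far below their constitutive counterparts. Psmb8 is overlapped over 498 bases by the antisense gene Gm20496, and Psmb9 over 212 bases by Tap1 on the opposite strand. As the use of strand is unknown, antisense reads in these low values cannot be told apart. Psmb9 was 1.99%, 2.17% and 2.74% of Psmb6 in EpiSCs, against 0.233% ± 0.0628 in ESCs (log2 difference 3.32, exact two-sided permutation p = 0.1, the smallest that 3 against 3 libraries allow). The EpiSC libraries alone carried Psmb8 and Psmb9 past the filter on low values, so that the filter partly set their difference from ESCs, and the values are a description.

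Psmb10 went the other way. It had 10.4, 8.84 and 8.96 FPKM in EpiSCs, against 39.3, 38.8 and 37.6 FPKM in ESCs (−1.93 ± 0.12, adjusted p = 9.0e-08). ESCs were the state with the highest Psmb10, and the 3 other states lay between 3.53 and 10.4 FPKM in every library. Psmb10 was 6.11% ± 0.976 of Psmb7 in EpiSCs and 22.9% ± 0.458 in ESCs (log2 difference −1.92, exact two-sided permutation p = 0.1). The untreated ESCs of the lactate table had 14.3, 11.5 and 10.02 FPKM, a level that cannot be tested against that of the ESCs in the other table.

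PA28 rose as a pair in EpiSCs. Psme1 had 59.3, 73.9 and 73.2 FPKM in EpiSCs, against 36.3, 36.2 and 33.9 FPKM in ESCs (0.93 ± 0.08, adjusted p = 1.7e-06). Psme2 had 54.0, 45.1 and 53.1 FPKM in EpiSCs, against 11.98, 15.7 and 12.8 FPKM in ESCs (1.84 ± 0.27, adjusted p = 0.00011), with no overlap in either gene. The ESCs of the other table, at 0 mM lactate, had 25.3, 26.6 and 26.2 FPKM of Psme2 and averaged 1.35 FPKM of Psme2b, beside 8.48 FPKM of Psme2b in the ESCs here, and the tables cannot be tested against each other. Its copy Psme2b rose as well (1.30 ± 0.31, adjusted p = 0.0037). The sum of Psme2 and Psme2b varied less between libraries than either of them, at 73.2 ± 2.75 FPKM in EpiSCs and 22.0 ± 0.459 FPKM in ESCs (1.69, adjusted p = 1.35e-09). The sum of Psme1 and Psme2 was set against the mean of the 6 ATPases, which stand for the alternative cap of the core. It was 107% ± 6.55 in EpiSCs and 36.6% ± 1.97 in ESCs (log2 difference 1.55, exact two-sided permutation p = 0.1). A sum of genes is here set against a mean per gene, so 107% does not mean equal levels. The ratio was above all ESC libraries in 2CLCs (53.3% ± 3.81) and MEFs (63.4% ± 6.34) as well. At 0, 60 and 80 mM lactate it was 45.9%, 48.0% and 55.1%, without overlap. The other activators did not pass in EpiSCs. Psme3 averaged 106 ± 2.70 FPKM in EpiSCs and 102 ± 2.67 FPKM in ESCs (0.05, adjusted p = 0.33). Psme4 had 59.4, 40.1 and 39.0 FPKM in EpiSCs and averaged 51.1 ± 0.444 FPKM in ESCs (−0.17, adjusted p = 0.27). EpiSC replicate 1 lay above the ESC mean and the others below it, and without it Psme4 fell (−0.36, adjusted p = 4.52e-06).

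**Figure D3:**
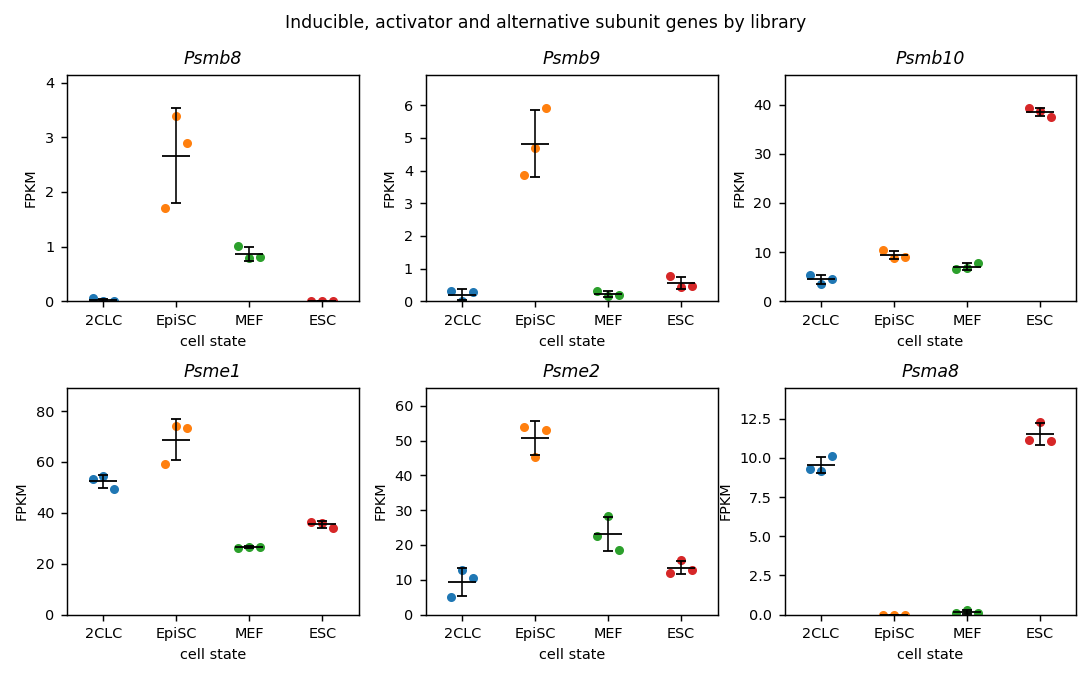
FPKM (vertical axis, from 0) of Psmb8, Psmb9, Psmb10, Psme1, Psme2 and Psma8 in each library of 2CLCs, EpiSCs, MEFs and ESCs (points), with the mean and SD of 3 libraries. Psmb8, Psmb9 and Psme2 are highest in EpiSCs, Psmb10 is highest in ESCs, and Psma8 is at or near 0 in EpiSCs and MEFs but averages 9.54 FPKM in 2CLCs and 11.5 FPKM in ESCs.

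Genes of interferon response and antigen presentation were examined beside these members. Of the 12 tested 8 rose in EpiSCs and 2 fell (median 1.10), where 33.2% of all genes rose and 26.5% fell (median 0.01). A gene entered the 12 by reaching 1 FPKM in 3 or more libraries of any state. Those near 0 in ESCs, such as Tap1 and Tap2, thus entered only through other states. The filter therefore partly set the counts and medians of this list, which are a description. Tap1, which carries peptides made by the proteasome into the endoplasmic reticulum and neighbours Psmb9, had 5.12, 17.3 and 17.7 FPKM in EpiSCs and averaged 0.238 FPKM in ESCs (log2 fold change 3.37). Replicate 1 was the lowest EpiSC library for Tap1, as it was for Psmb8, Psmb9 and Psme1. The macrophage marker Cd68 had 4.38, 23.7 and 24.9 FPKM in EpiSCs and averaged 5.95 FPKM in ESCs, so that replicate 1 was lowest there too. The 7 blood cell markers summed to 4.55 to 25.2 FPKM in EpiSCs, with Adgre1, Tyrobp and Cd52 at 0, and to 38.0 to 41.5 FPKM in ESCs, and their part in these levels was not tested. Tap2 averaged 4.60 FPKM in EpiSCs and 0.0968 FPKM in ESCs (2.34), and the class I heavy chain gene H2-D1 rose by 1.61. The interferon factor Irf9 fell (−1.27). In 2CLCs 3 of the 12 rose and 4 fell, where 20.1% of all genes rose and 56.4% fell. H2-K1 averaged 19.2 FPKM in 2CLCs and 7.73 FPKM in ESCs (1.21), and H2-D1 rose by 0.95. Irf9 averaged 1.08 FPKM in 2CLCs and 6.40 FPKM in ESCs (−1.85), and Irf1 fell by 1.19.

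The constitutive particle changed less in EpiSCs. All 6 ATPases fell (median −0.26), as did 8 of 11 non-ATPase subunits (median −0.24), and no 19S subunit rose. Over all genes 26.5% fell and 33.2% rose (median 0.01). In the 20S core 2 of 14 subunits rose and 5 fell, the alpha subunit Psma7 (0.21) and the beta subunit Psmb1 (0.19) being the higher ones. Neither passed after median-of-ratios scaling. Of the catalytic subunits, Psmb5 and Psmb6 fell (−0.19 and −0.18) and Psmb7 did not pass (−0.12, adjusted p = 0.081). Summed over the particles, the 17 19S genes held 89.6% ± 4.59 of the FPKM of the 14 20S genes in EpiSCs and 104% ± 1.39 in ESCs. Psmd7 had 108, 78.1 and 77.9 FPKM in EpiSCs, against 179, 178 and 176 FPKM in ESCs. It was lower in each EpiSC library (−1.02 ± 0.10, adjusted p = 7.0e-06, and −1.18 without EpiSC replicate 1). The further falls by size were those of Psmd5, the base chaperone (−0.61 ± 0.08, adjusted p = 3.3e-05), and Psmd12, a lid subunit (−0.47 ± 0.06, adjusted p = 3.9e-05).

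Psma8 was expressed in 2CLCs and ESCs and was below 1 FPKM in the other states. It was listed at 0 in all 3 EpiSC libraries, against 11.2, 12.3 and 11.1 FPKM in ESCs (difference of log2(FPKM + 1) −3.64 ± 0.09, adjusted p = 6.4e-11). In MEFs it had 0.0944, 0.304 and 0.112 FPKM (−3.42 ± 0.09 against ESCs, adjusted p = 1.6e-11), so its libraries separated into 2CLCs and ESCs at 9.17 to 12.3 FPKM and the other states below 1 FPKM. Psma8 takes the place of Psma7 in the ring, and stood at 8.20% of Psma7 in 2CLCs, 0.116% in MEFs and 6.85% in ESCs. The core chaperones Psmg2 (0.59, adjusted p = 0.0001) and Psmg3 (0.46, adjusted p = 0.029) rose in EpiSCs. Psmg3 had 23.2, 23.3 and 26.4 FPKM in EpiSCs, against 17.6, 16.6 and 17.8 FPKM in ESCs, and its call was lost in 5 of the 6 fits that each left out a library of these groups. Psmf1 averaged 12.8 ± 1.003 FPKM in EpiSCs and 7.38 ± 0.405 FPKM in ESCs (0.72 ± 0.07, adjusted p = 5.3e-06). Psmc3ip did not pass (0.16, adjusted p = 0.086).

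**Figure D4:**
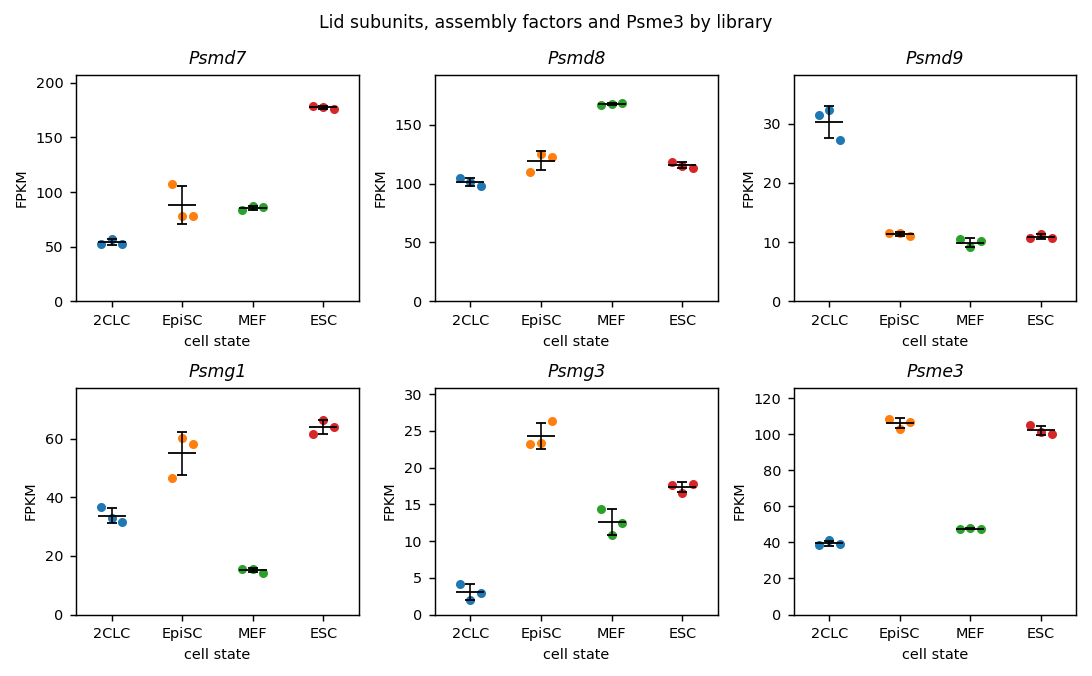
FPKM (vertical axis, from 0) of the lid subunits Psmd7 and Psmd8, the assembly factors Psmd9, Psmg1 and Psmg3, and the activator Psme3 in each library of 2CLCs, EpiSCs, MEFs and ESCs (points), with the mean and SD of 3 libraries. Psmd9 is highest in 2CLCs (27.2 to 32.3 FPKM), Psmd8 in MEFs (167 to 169 FPKM), Psmg3 in EpiSCs (23.2 to 26.4 FPKM) and Psmd7 in ESCs (176 to 179 FPKM).

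MEFs and ESCs were compared to set the proteasome genes of a differentiated cell beside those of pluripotent cells. Nearly the whole complex was lower in MEFs. Of the 50 members 4 rose, 41 fell and 5 did not pass, while 75.3% of all 16358 genes changed, 34.4% higher and 40.9% lower. Libraries did not overlap for 49 of 50 members and for 83.5% of all genes. The members' median was −0.66, against −0.07 over all genes. After median-of-ratios scaling 6 members were higher and 37 lower, where 6206 of all genes were higher and 5856 lower. After quantile normalization 4 members were higher and 40 lower, where 5477 of all genes were higher and 6941 lower. Of the 31 constitutive subunits 30 fell (median −0.67), all 14 of the 20S core (median −0.76) and 16 of 17 of the 19S particle (median −0.61). The falls of Psma7 (−0.20) and Psmb1 (−0.16) turned to 0.03 and 0.06 after quantile normalization.

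Psmd8, a lid subunit, was the constitutive subunit that rose. It had 167, 168 and 169 FPKM in MEFs, against 119, 115 and 113 FPKM in ESCs (0.53 ± 0.05, adjusted p = 3.5e-06), and it was also higher after both scalings. The catalytic subunits were among the lower ones. Psmb6 averaged 108 ± 2.38 FPKM in MEFs and 236 ± 11.7 FPKM in ESCs (−1.12 ± 0.06), Psmb7 84.6 ± 2.39 FPKM in MEFs and 168 ± 0.611 FPKM in ESCs (−0.98), and Psmb5 82.9 FPKM in MEFs and 129.9 FPKM in ESCs (−0.64). Psmd7 had 83.8, 87.4 and 85.9 FPKM in MEFs, with a log2 fold change of −1.04, beside −1.02 in EpiSCs. The 19S genes summed to 114% ± 1.35 of the 20S genes in MEFs and to 104% ± 1.39 in ESCs.

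Of the inducible subunits, Psmb10 had 6.48, 6.84 and 7.77 FPKM in MEFs, below all ESC libraries (−2.30 ± 0.12, adjusted p = 6.2e-09). Psmb8 had 1.02, 0.793 and 0.801 FPKM in MEFs and was listed at 0 in all ESC libraries (difference of log2(FPKM + 1) 0.90 ± 0.14, adjusted p = 0.00011), and Psmb9 did not pass (−0.34, adjusted p = 0.053). Only 1 MEF library reached 1 FPKM of Psmb8, so it was tested here through EpiSCs and has no test in a fit of MEFs and ESCs alone. The PA28 genes parted: Psme1 fell to 26.5 ± 0.321 FPKM in MEFs, against 35.5 ± 1.34 FPKM in ESCs (−0.41), and Psme2 had 22.6, 28.3 and 18.4 FPKM in MEFs, against 11.98, 15.7 and 12.8 FPKM in ESCs (0.72 ± 0.27, adjusted p = 0.028). The rise of Psme2 was lost without MEF replicate 1 or 2 or ESC replicate 1 or 3, and that of Psme2b (0.83 ± 0.31, adjusted p = 0.03) without MEF replicate 1 or 3 or ESC replicate 2. Their sum, 39.0 ± 0.877 FPKM in MEFs and 22.0 ± 0.459 FPKM in ESCs, rose by 0.80 (adjusted p = 2.28e-07). Psme3 and Psme4 fell (−1.08 and −0.82), Psme3 to 47.7 ± 0.382 FPKM. Psmf1 averaged 8.21 FPKM in MEFs and 7.38 FPKM in ESCs and did not pass (0.14, adjusted p = 0.10).

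Among the assembly factors, all 4 core chaperones fell in MEFs (median −1.27). Psmg1 had 15.4, 15.5 and 14.3 FPKM in MEFs, against 61.7, 66.5 and 64.1 FPKM in ESCs (−2.02 ± 0.09, adjusted p = 2.6e-09). Psmg4 had 11.99, 10.1 and 11.1 FPKM in MEFs and averaged 35.9 FPKM in ESCs (−1.62 ± 0.14, adjusted p = 8.3e-07). Psmg2 fell by 0.93. The smallest of these falls, that of Psmg3 (−0.44, adjusted p = 0.028), was lost without MEF replicate 2 or 3 or ESC replicate 1 or 3. Of the 3 base chaperones none passed. Psmc3ip, the meiotic factor, had 2.89, 3.07 and 3.42 FPKM in MEFs, against 20.6, 20.5 and 22.8 FPKM in ESCs (−2.43 ± 0.07, adjusted p = 6.5e-11). Of the interferon and antigen presentation genes 10 of 12 rose and none fell in MEFs (median 1.11), where 34.4% of all genes rose and 40.9% fell, with B2m at 285 FPKM in MEFs and 8.32 FPKM in ESCs (4.94). As in EpiSCs, the filter partly set this count and median. Markers of blood cells, which express immunoproteasome genes, summed over 7 genes to 196 to 216 FPKM in MEFs, with none at 0, and to 38.0 to 41.5 FPKM in ESCs, where Adgre1, Tyrobp and Lyz2 were at 0. Their part in the level of Psmb8 in MEFs was not tested.

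Genes that work with the proteasome but are not in it were followed as a further list of 26, which holds shuttle factors, the deubiquitinases at the 19S particle and regulators of subunit transcription. In 2CLCs 3 of the 26 rose and 18 fell (median −0.57, against −0.46 over all genes), where 20.1% of all genes rose and 56.4% fell. The import factor Akirin2 rose by 0.38. The shuttle factor Ubqln4 averaged 26.0 FPKM in 2CLCs and 76.5 FPKM in ESCs (−1.52), and the ligase Ube3c fell by 1.51. In EpiSCs 4 rose and 9 fell (median −0.03), where 33.2% of all genes rose and 26.5% fell, with Ecpas, a scaffold that binds the 26S particle, at 27.9 FPKM in EpiSCs and 12.5 FPKM in ESCs (1.09). In MEFs 10 rose and 13 fell (median −0.18), where 34.4% of all genes rose and 40.9% fell. The 19S deubiquitinase Uchl5 fell (−1.08) together with Ubqln4 (−1.48).

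The lactate doses were compared to ask whether sodium lactate moves the proteasome genes of ESCs. The largest change of a member was the fall of the core chaperone Psmg3. The comparisons at 60 and 80 mM share the control libraries. At 60 mM 6 of the 48 members tested rose, 10 fell and 32 did not pass, while 42.1% of all 13271 genes changed, 23.5% higher and 18.6% lower. Libraries did not overlap for 23 of 48 members and for 53.2% of all genes. At 80 mM 8 rose, 16 fell and 24 did not pass, while 53.1% of all genes changed, 30.0% higher and 23.1% lower, and libraries did not overlap for 27 of 48 members and for 60.0% of all genes. The members' medians were −0.01 and −0.02, against 0.03 over all genes at each dose. Scaling moved the split: after median-of-ratios scaling 3 members were higher and 16 lower at 60 mM and 5 higher and 22 lower at 80 mM. Of all genes 2571 were then higher and 3026 lower at 60 mM, and 3269 higher and 3913 lower at 80 mM. After quantile normalization 12 members were higher and 5 lower at 60 mM, and 12 higher and 10 lower at 80 mM. Of all genes 2776 were then higher and 2605 lower at 60 mM, and 3457 higher and 3453 lower at 80 mM. Psmb8 and Psmb9 were not tested, as they stayed below 1 FPKM at all doses.

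Psmg3 had the largest fall at both doses. It had 11.1, 13.1 and 10.05 FPKM at 0 mM, 5.31, 7.97 and 5.17 FPKM at 60 mM and 6.78, 5.51 and 5.91 FPKM at 80 mM. Every treated library lay below every untreated one, and the log2 fold change was −0.81 ± 0.15 at 60 mM (adjusted p = 0.0015) and −0.81 ± 0.15 at 80 mM (adjusted p = 0.0010). Gm26938, which overlaps Psmg3 on the same strand, had 1.01 FPKM in 60 mM replicate 3. It was listed at 0 in every other library of the lactate doses, and its part in the values of Psmg3 was not tested. Psma8 had 12.4, 12.05 and 13.8 FPKM at 0 mM, 10.2, 10.2 and 10.3 FPKM at 60 mM and 9.18, 8.11 and 8.50 FPKM at 80 mM. The 3 doses did not overlap, and it fell by 0.29 at 60 mM (adjusted p = 0.0043) and by 0.52 at 80 mM (adjusted p = 7.2e-05). Psme4 had 61.7, 63.6 and 58.2 FPKM at 0 mM, 52.5, 53.4 and 56.1 FPKM at 60 mM and 48.3, 48.8 and 50.4 FPKM at 80 mM. Against 0 mM it fell by 0.18 at 60 mM (adjusted p = 0.0066) and by 0.31 at 80 mM (adjusted p = 0.00014), while the step between the doses did not pass (−0.13, adjusted p = 0.089).

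**Figure D5:**
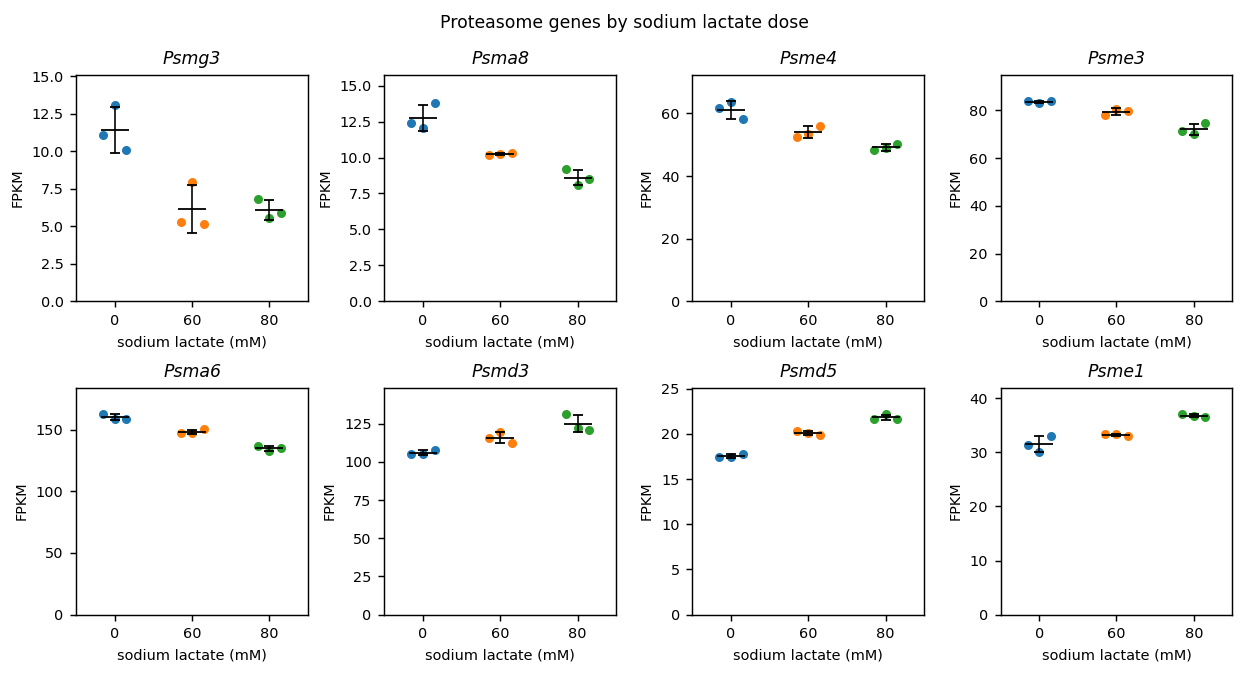
FPKM (vertical axis, from 0) of 8 members in each library of ESCs at 0, 60 and 80 mM sodium lactate (horizontal axis), with the mean and SD of 3 libraries. Psmg3 drops below 8 FPKM at 60 mM and stays there, Psma8, Psme4, Psme3 and Psma6 are lowest at 80 mM, and Psmd3, Psmd5 and Psme1 are highest at 80 mM.

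In the 20S core Psma6 had 163, 159 and 159 FPKM at 0 mM, 147, 148 and 150.4 FPKM at 60 mM and 137, 133 and 135 FPKM at 80 mM. It fell by 0.11 at 60 mM and by 0.25 at 80 mM (adjusted p = 2.0e-05), and Psma6 and Psme3 were the 2 members that also fell between 60 and 80 mM (−0.14 ± 0.02, adjusted p = 0.011, and −0.14 ± 0.03, adjusted p = 0.026). At that step 6.17% of all genes changed, 4.06% higher and 2.11% lower, and no member rose, with non-overlapping libraries for 17 of 48 members and 28.5% of all genes. The call of Psme3 was lost without any 1 library at 60 mM and without replicate 1 or 2 at 80 mM. Psma3, also of the alpha ring, had 114, 113 and 96.6 FPKM at 0 mM, 112, 94.4 and 109 FPKM at 60 mM and 86.0, 99.5 and 81.3 FPKM at 80 mM. Its libraries overlapped, and its fall at 80 mM (−0.27, adjusted p = 0.026) was lost without 0 mM replicate 1 or 2 or 80 mM replicate 1 or 3. At 80 mM 6 of the 14 core subunits fell and 1, Psmb1, rose (0.11, adjusted p = 0.048), and 4 of the 6 ATPases fell. Over all genes 23.1% fell and 30.0% rose at 80 mM. The split of the members at this dose moved with scaling, as given above. Psmc1, an ATPase, averaged 163 FPKM at 0 mM, 149.6 FPKM at 60 mM and 139.7 FPKM at 80 mM (−0.22 at 80 mM, adjusted p = 7.5e-05). Psmc3, another ATPase, averaged 156 FPKM at 0 mM, 142 FPKM at 60 mM and 144 FPKM at 80 mM (−0.14 with adjusted p = 0.0046, and −0.12 with adjusted p = 0.0076). Of the catalytic subunits Psmb5 fell at both doses (−0.15 and −0.12), Psmb6 at 80 mM (−0.11), and Psmb7 did not pass at either dose (0.12 and 0.02).

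Some non-ATPase subunits and the base chaperones Psmd5 and Psmd10 rose. Psmd3, a lid subunit, had 106, 105 and 108 FPKM at 0 mM, 116, 119.7 and 112 FPKM at 60 mM and 131, 123 and 121 FPKM at 80 mM (0.23 at 80 mM, adjusted p = 0.00044). Psmd8 (0.19) and Psmd11 (0.17) rose at 80 mM too. Psmd5 had 17.5, 17.4 and 17.8 FPKM at 0 mM, 20.3, 20.1 and 19.9 FPKM at 60 mM and 21.7, 22.2 and 21.7 FPKM at 80 mM, with no overlap between doses (0.18 at 60 mM with adjusted p = 0.0024 and 0.30 at 80 mM with adjusted p = 7.1e-05). Psmd10, also a base chaperone, averaged 9.57 FPKM at 0 mM, 11.5 FPKM at 60 mM and 12.3 FPKM at 80 mM (0.33 at 80 mM, adjusted p = 0.0021). The third base chaperone, Psmd9, averaged 9.48 FPKM at 0 mM, 10.4 FPKM at 60 mM and 10.98 FPKM at 80 mM and did not pass at either dose (0.12 with adjusted p = 0.25, and 0.19 with adjusted p = 0.060). Psmd7, which like several other members was higher in ESCs than in each other state, averaged 151, 151 and 152 FPKM at 0, 60 and 80 mM.

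Of the activators, Psme1 had 31.4, 30.0 and 33.0 FPKM at 0 mM, averaged 33.2 ± 0.172 FPKM at 60 mM and had 37.1, 36.8 and 36.5 FPKM at 80 mM. It passed at 80 mM (0.22, adjusted p = 0.00082) and did not at 60 mM (0.08, adjusted p = 0.13). Psme2 averaged 26.0, 23.9 and 26.9 FPKM at 0, 60 and 80 mM and passed at neither dose. Psme3 averaged 83.6 ± 0.498 FPKM at 0 mM, 79.4 ± 1.38 FPKM at 60 mM and 72.0 ± 2.32 FPKM at 80 mM (−0.21 at 80 mM, adjusted p = 0.00024). Psmb10 averaged 11.9, 10.6 and 10.2 FPKM at 0, 60 and 80 mM and passed at neither dose (adjusted p = 0.40 and 0.19). Psmf1 averaged 6.25, 7.42 and 7.35 FPKM (0.22 at 60 mM with adjusted p = 0.014 and 0.20 at 80 mM with adjusted p = 0.013). At 80 mM it did not pass after either scaling. Psmc3ip averaged 17.1, 17.6 and 15.1 FPKM and passed at neither dose (adjusted p = 0.66 and 0.064).

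Of the 26 genes that work with the proteasome 5 rose and 3 fell at 60 mM, where 23.5% of all genes rose and 18.6% fell, and 9 rose and 4 fell at 80 mM, where 30.0% rose and 23.1% fell. Nfe2l2, which encodes the transcription factor NRF2, averaged 29.7 FPKM at 0 mM, 22.1 FPKM at 60 mM and 21.7 FPKM at 80 mM (−0.41 and −0.44). Pomp, the maturation factor of the beta rings, fell by 0.11 at 60 mM and by 0.22 at 80 mM, where it averaged 54.6 FPKM, against 63.8 FPKM at 0 mM. Ufd1, a cofactor of the unfoldase p97, rose by 0.38 at 80 mM. Of the 8 interferon and antigen presentation genes tested 3 rose at each dose and none fell. Over all genes 23.5% rose and 18.6% fell at 60 mM, and 30.0% rose and 23.1% fell at 80 mM. The class I gene H2-K1 averaged 5.57 FPKM at 0 mM, 13.8 FPKM at 60 mM and 13.1 FPKM at 80 mM (1.17 and 1.11), while Psmb8 and Psmb9 stayed near 0.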

How the data were processed

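RNA sequencing libraries (21, in 7 groups of 3) were analysed. Trizol RNA was made into TruSeq libraries and run on a MiSeq, per the labels. The submitters' processing notes name HISAT2 2.0.4, StringTie 2.1.4 and mm10, and the annotation and use of strand are not given in the sources used here. The authors deposited FPKM. Read depth is unknown, since low values fell on no common step (at most 2.29% of single-exon genes shared a value).

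Entries of 1 name were summed, and no member stood more than once. Groups came from the labels. Values were taken as log2(FPKM + 1), genes reaching 1 FPKM in 3 or more libraries were tested, and all groups of a table entered a single fit with a mean trend in limma 3.58.1 (R 4.3.3), with p-values adjusted by Benjamini-Hochberg over all genes tested at a threshold of 0.05. The script was tested on simulated data. Ratios within a library were compared by exact permutation. Tables and figures were made in Python 3.11.15 (pandas 2.3.3, numpy 2.4.6, matplotlib 3.10.9).

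The members, gene lists and tests were chosen with earlier results of these data known. Named members are the catalytic and inducible subunits, activators, Psmf1, Psma8 and Psmc3ip in each comparison, the 5 largest called changes each way, and members at the middle or the extremes of a class; Psmd7 at both lactate doses, Psmd14, Psmg1, Psmg2 and Psmg4 were added after their values were seen. Of the 2 lists outside the complex, up to 3 called genes each way are named. Some genes of these lists are not reported here. Alternatives were pseudocounts of 0.1 and 5, no filter and a filter of 5 FPKM, 2 scalings, no mean trend, fits of only the compared groups, a replicate block, leaving out each library, and, chosen after seeing the data, copies summed with their parent genes.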

Additional observations from a re-analysis of the deposited data

How the results depend on the processing

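Depth is unknown, so no counting error can be given for low genes, and Psmb8 and Psmb9 rest on a few FPKM. Median-of-ratios scaling left 31 members higher and 5 lower in 2CLCs, 3 and 16 at 60 mM and 5 higher at 80 mM lactate, with 5 lower from 60 to 80 mM. Quantile normalization left 6 higher in 2CLCs, 14 lower in EpiSCs, 12 higher and 5 lower at 60 mM and 10 lower at 80 mM. From 60 to 80 mM, 1 member was lower with no filter, 1 was higher with a filter of 5 FPKM, none was lower with no mean trend, and 1 was higher and 1 lower when the fit held only the groups compared. The cause of these changes was not tested.

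Median-of-ratios scaling turned the members' median in 2CLCs to 0.434 and the log2 fold change against ESCs of Psma1 to 0.66, Psma2 to 0.68, Psma3 to 0.0893, Psma4 to 0.0228, Psma5 to 0.0593, Psma5-ps to 0.21, Psma7 to 0.23, Psma8 to 0.46, Psmb2 to 0.61, Psmb3 to 0.76, Psmb4 to 0.43 and Psmb5 to 0.51. It likewise turned Psmc1 to 0.47, Psmc2 to 0.56, Psmc3 to 0.72, Psmc4 to 0.50, Psmc5 to 0.37, Psmd1 to 0.58, Psmd2 to 0.46, Psmd3 to 0.0828, Psmd4 to 0.71, Psmd5 to 0.0679, Psmd6 to 0.37, Psmd8 to 0.57, Psmd10 to 0.25, Psmd11 to 0.24, Psmd12 to 0.0603, Psmd13 to 0.18, Psmd14 to 0.44, Psme4 to 0.48, Psmf1 to 0.51 and Psmg4 to 0.29. Quantile normalization turned Psma8 to 0.20, Psmd10 to 0.0158, Psmf1 to 0.26, Psmb6 to −0.36 and Psmb7 to −0.0377 in 2CLCs, Psma7 to 0.0322 and Psmb1 to 0.0607 in MEFs (Psmb1 0.0418 by median-of-ratios scaling), and the members' median to 0.0239 at 60 mM and 0.0193 at 80 mM.

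Leaving out each library in turn left 2 to 3 members higher and 29 to 35 lower in 2CLCs, 8 to 11 and 18 to 24 in EpiSCs, and 2 to 5 and 39 to 42 in MEFs, with 2 higher without MEF replicate 1. It left 2 to 6 higher and 7 to 10 lower at 60 mM, with 2 higher without 60 mM replicate 2, and 7 to 8 higher and 12 to 17 lower at 80 mM. From 60 to 80 mM it left 0 to 1 higher and 1 to 3 lower.

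With a pseudocount of 1 the log2 difference of Psmb9 to Psmb6 was 2.07 in EpiSCs and 0.78 in MEFs (3.32 and −0.18 without), and that of Psmb10 to Psmb7 was −3.02 in 2CLCs and −1.32 in MEFs (−3.28 and −1.47 without). Same-numbered libraries of different groups had correlations of deviations between −0.07 and 0.10, and differently numbered ones between −0.195 and 0.104. The numbers thus carried no visible shared deviation, though whether libraries were prepared in matched sets cannot be told from these values. The replicate block left 3 members higher and 32 lower in 2CLCs, 10 and 20 in EpiSCs, 4 and 41 in MEFs, 6 and 8 at 60 mM, 8 and 16 at 80 mM, and 0 and 2 from 60 to 80 mM.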
